A study of Homo sapiens with 2 samples.

Results

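The genes described here encode proteins of the nucleolus and of ribosome biogenesis, among them nucleolin (NCL), the protein that the study followed to the protrusions of breast cancer cells. They were taken by symbol, as every gene whose name begins with NOP, NOL or UTP followed by a digit, the POLR1A to POLR1E subunits, and 13 named genes (NCL, NPM1, FBL, DKC1, GAR1, NHP2, BOP1, PES1, RRS1, RRP9, RRP12, NOLC1 and TCOF1). This gave 44 of the 18781 genes in the table, lying on 20 chromosomes. The rule uses no measured value, but it was set with earlier results of these data known.

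T47D, an established luminal breast cancer line of WT genotype, was lysed and the lysate was incubated with protein A beads that carried either an antibody against IMP1 or normal IgG. IMP1 is a cytoplasmic RNA-binding protein that binds and transports mRNAs. The RNA held on the beads was extracted with TRIzol and sequenced, which gave 1 library with the IMP1 antibody and 1 with control IgG. The comparison asks which RNAs came down with IMP1 rather than with the beads and a non-specific antibody. Both libraries carry the labels of the same cell line and genotype, with no other treatment, and no library of the input RNA was analysed here, so the amount of an mRNA in the cells and the share of it that was bound cannot be told apart.

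The nucleolus is the nuclear compartment in which RNA polymerase I transcribes ribosomal DNA. Box C/D and box H/ACA small nucleolar ribonucleoproteins (snoRNPs) modify the precursor rRNA there, the small subunit processome cuts and folds the part that becomes the small subunit, and a separate set of factors matures the large subunit. Nucleolin and nucleophosmin are abundant nucleolar phosphoproteins that also shuttle to the cytoplasm and bind RNA. All these proteins are made in the cytoplasm, where their mRNAs can meet IMP1.

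The markers of the cell line were present in both libraries, but the library labelled control IgG also held RNA that goes against its label. All 12 luminal breast epithelial markers were found, summing to 1863 FPKM with the IMP1 antibody and 778 FPKM with IgG, and 11 of them reached 1 FPKM with IgG, the exception being TFF3 at 0. The 10 mesenchymal markers summed to 2.64 FPKM with the IMP1 antibody, where 1 reached 1 FPKM and COL1A2, DCN, LUM, SPARC and ZEB2 were at 0, and to 234 FPKM with IgG, where all 10 reached 1 FPKM. DCN, which encodes the matrix proteoglycan decorin, was at 37.5 FPKM with IgG, and FN1, which encodes fibronectin, at 1.30 FPKM with the IMP1 antibody and 79.7 FPKM with IgG. So 1 of the 2 libraries did not match its label on these markers, and every ratio below rests on it, since there is no other control library. The part of these differences in the members' ratios was not tested, and a source of RNA other than T47D cannot be told apart from the antibody.

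Values are FPKM, sequenced fragments scaled to transcript length and to the total of the library, so that levels can be compared between genes of different length. A log2 ratio is that of FPKM + 0.1 with the IMP1 antibody over FPKM + 0.1 with IgG, and a gene was called lower or higher when this ratio passed 2-fold. A fold is given only for the 37 members at 0.001 FPKM or more in both libraries and is the plain quotient of the FPKM values. With 1 library per condition no difference has a replicate check, no test was run, and the depth behind each FPKM is unknown, so no counting interval can be given.

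Of the 44 members, 17 were at least 2-fold lower with the IMP1 antibody (38.6%, against 29.9% of all genes) and 13 were at least 2-fold higher (29.5%, against 39.9% of all genes). The other 14 lay between. The median log2 ratio of the members was -0.33, and that of all genes was 0.40. Of the 13 higher members, 7 were at or near 0 with IgG: 6 were listed at exactly 0 (13.6%, against 38.7% of all genes) and NOL12 at 4.41e-09 FPKM. No member was at 0 in the IMP1 library. In the range of 1 to 4 FPKM with the IMP1 antibody, 5 of 22 members were at 0 with IgG (22.7%, against 30.7% of all genes in that range), and none of the 16 members at 4 FPKM or more was. Among the 28 members at 1 FPKM or more in both libraries, 14 were lower (50%, against 44% of all such genes), 1 was higher (3.57%, against 11.5%), and the median log2 ratio was -0.98, beside -0.78 for all such genes.

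These counts depend on the scale set between the libraries. The FPKM of all genes summed to 353885 with the IMP1 antibody and to 1.30e+06 with IgG. Multiplying the IMP1 values by 1.45 (equal sums without the 50 highest genes) gave 12 members lower and 17 higher, with a median log2 ratio of 0.21. Multiplying by 1.73 (no change at the median of genes at 1 FPKM or more in both libraries) gave 7 lower and 17 higher. The median of the members was then 0.46. Multiplying by 3.67 (equal sums) gave 3 lower and 26 higher, with a median of 1.54. All genes moved likewise, to 23.9% lower and 45.9% higher, 21.3% and 49.3%, and 13.0% and 63.7%. Their median log2 ratios on these scales were 0.76, 0.96 and 1.87, each above that of the members. The members lower on each of the 4 scales were NOL8, RRP12 and NOL11. The members with a fold that were higher on each of them were FBL, NOL6, NOP16, POLR1E, UTP14A and UTP14C, but with a pseudocount of 1 in place of 0.1 on the deposited scale NOP16 was the 1 of these 6 still past 2-fold. Ranks among all genes and ratios between members within 1 library do not depend on the scale, and both are given below.

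**Figure D1:**
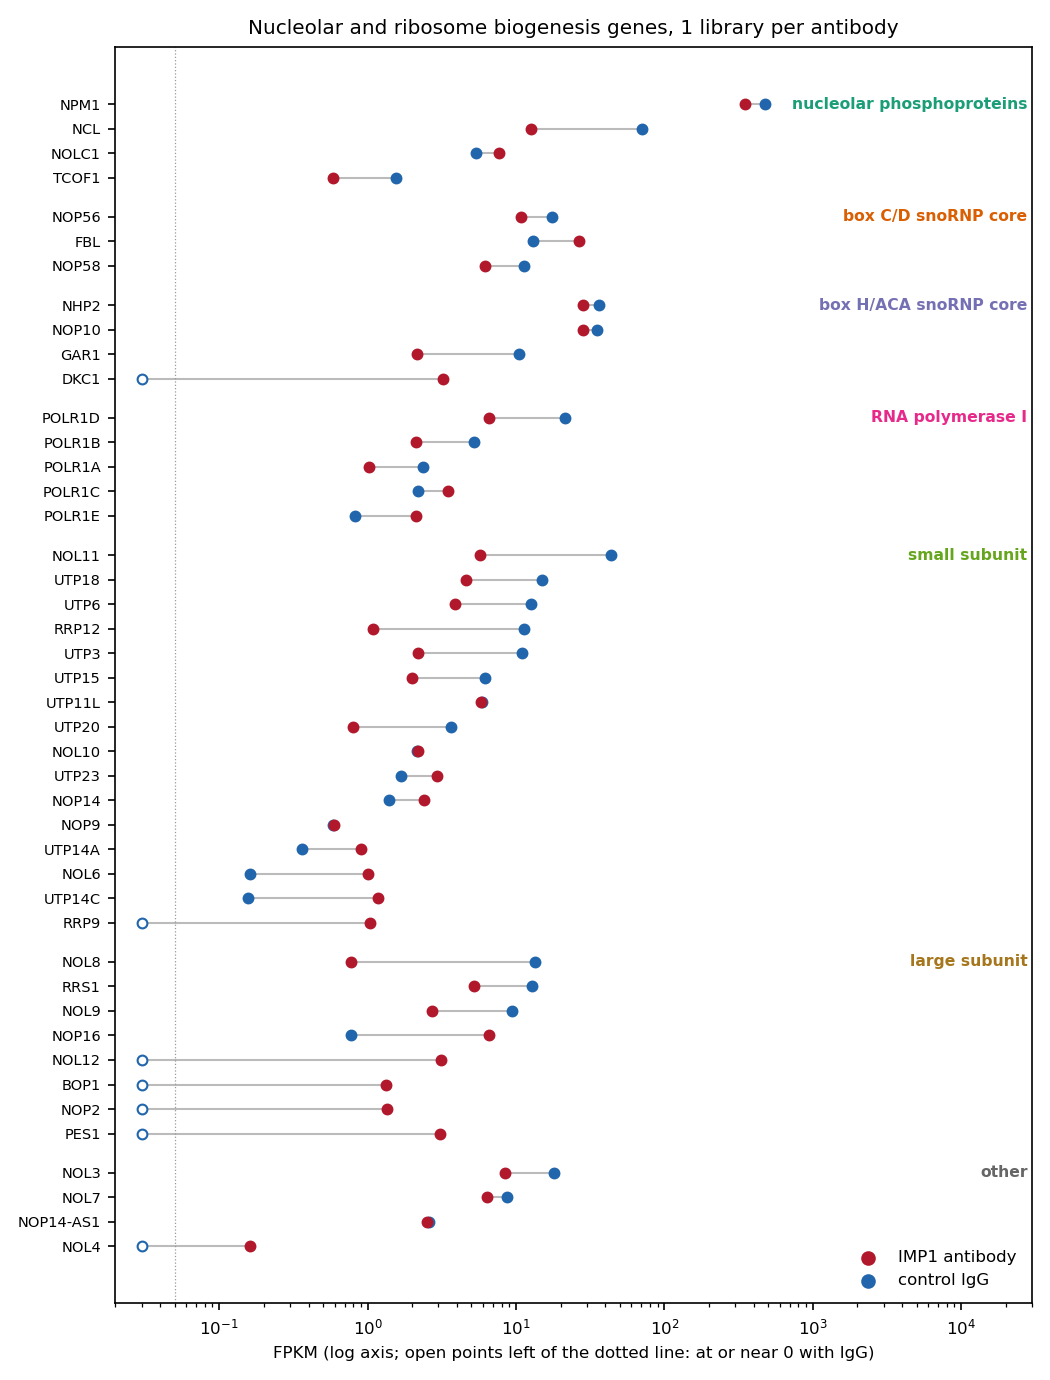
FPKM of the 44 members in the IMP1 antibody library (red) and the control IgG library (blue) on a log axis, grouped by role, 1 library each. NPM1 lies far above the others in both libraries, NCL is 5.62-fold lower with the IMP1 antibody, and 7 open points mark the members at or near 0 with IgG.

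Nucleolar phosphoproteins. NCL, listed at chr2:232318242-232348352 (hg19), had 12.6 FPKM with the IMP1 antibody and 71.0 FPKM with IgG. It was 5.62-fold lower with the IMP1 antibody, at a log2 ratio of -2.48, and its sign held on the other scales (-1.95, -1.69 and -0.61). It ranked 466 of 18781 genes with IgG and 1738 with the IMP1 antibody. Within the members it was the second most abundant mRNA with IgG and the fifth with the IMP1 antibody, where NPM1, NHP2, NOP10 and FBL stood above it. NPM1, which encodes nucleophosmin, a histone and ribosome chaperone, had 348 and 476 FPKM, a log2 ratio of -0.45 that became 0.08, 0.34 and 1.42 on the other scales. Its rank was nearly the same in both libraries, 77 with the IMP1 antibody and 81 with IgG. The NPM1 mRNA was therefore 27.6 times as abundant as the NCL mRNA with the IMP1 antibody and 6.71 times as abundant with IgG. NPM1 alone made up 61.1% of the summed FPKM of the members with the IMP1 antibody and 53.4% with IgG. The 10 listed pseudogenes of NPM1 summed to 1.33 FPKM with the IMP1 antibody and 1.27 FPKM with IgG. How reads that match both NPM1 and a pseudogene were assigned is not given in the sources used here. NOLC1, a chaperone of snoRNPs, had 7.68 and 5.35 FPKM. TCOF1, which encodes treacle, a factor for ribosomal DNA transcription, had 0.587 and 1.54 FPKM, which is 2.63-fold lower as deposited and 0.46 on the log2 scale at equal sums.

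Box C/D snoRNP core. FBL encodes fibrillarin, the methyltransferase of the box C/D particles, and stood apart from its partners. It had 26.6 FPKM with the IMP1 antibody and 13.0 FPKM with IgG, 2.05-fold higher with the IMP1 antibody (log2 ratio 1.03, between 1.56 and 2.90 on the other scales, and 0.98 with a pseudocount of 1, which is under 2-fold). Its rank was 810 with the IMP1 antibody and 3051 with IgG. NOP56 had 10.7 and 17.4 FPKM and NOP58 6.21 and 11.4 FPKM. Both proteins form the scaffold that holds fibrillarin, and their mRNAs kept nearly the same proportion in the libraries, NOP56 over NOP58 being 1.73 with the IMP1 antibody and 1.53 with IgG. FBL over NOP56 was 2.48 with the IMP1 antibody and 0.747 with IgG, so the order of these mRNAs differed between the libraries.

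Box H/ACA snoRNP core. NHP2 and NOP10, small proteins of the pseudouridylation particle, lay close together in both libraries. NHP2 had 28.4 FPKM with the IMP1 antibody and 36.1 FPKM with IgG, and NOP10 had 28.2 and 35.0 FPKM. NHP2 over NOP10 was 1.01 with the IMP1 antibody and 1.03 with IgG. GAR1, the other small protein, had 2.14 and 10.4 FPKM, which was 4.86-fold lower with the IMP1 antibody (log2 ratio -2.23, and -0.40 at equal sums), and NHP2 over GAR1 was 13.3 against 3.47. DKC1, which encodes dyskerin, the pseudouridine synthase itself, had 3.22 FPKM with the IMP1 antibody and was listed at 0 with IgG, so no fold is given. Of the mRNAs of this 4-protein particle, 1 was lower, 1 higher through a listed 0 and 2 between as deposited. Of all genes, 29.9% were lower and 39.9% higher. At equal sums 3 of the 4 were higher and none lower, against 63.7% and 13.0% of all genes. There NHP2 was at 1.53 and NOP10 at 1.56 on the log2 scale, beside a median of 1.87 for all genes.

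RNA polymerase I. Of 5 subunit mRNAs, 3 were lower (60%, against 29.9% of all genes) and 1 higher (20%, against 39.9%) as deposited. Their median log2 ratio was -1.13 as deposited and 0.64 at equal sums, beside 0.40 and 1.87 for all genes. POLR1D, a subunit shared with RNA polymerase III, had 6.60 FPKM with the IMP1 antibody and 21.5 FPKM with IgG. POLR1B, the second-largest subunit, had 2.11 and 5.22 FPKM, and POLR1A, the largest, had 1.02 and 2.35 FPKM. POLR1C, the other shared subunit and the partner of POLR1D, had 3.48 and 2.18 FPKM. POLR1D over POLR1C was 1.90 with the IMP1 antibody and 9.87 with IgG. POLR1E had 2.12 and 0.818 FPKM, 2.59-fold higher with the IMP1 antibody, and a log2 ratio of 0.78 with a pseudocount of 1.

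Small subunit processome and 40S maturation. This was the largest group, with 16 members. Of these, 7 were lower (43.8%, against 29.9% of all genes) and 4 higher (25%, against 39.9%). The group median log2 ratio was -0.01 as deposited and 1.78 at equal sums, beside 0.40 and 1.87 for all genes. NOL11, a processome protein needed for rRNA transcription, had 5.76 FPKM with the IMP1 antibody and 43.9 FPKM with IgG. It was 7.62-fold lower with the IMP1 antibody, and its rank was 3517 against 820. RRP12, a factor for export of the small subunit precursor, had 1.09 and 11.3 FPKM, 10.4-fold lower, with ranks of 9522 and 3388, and its listed span also holds RP11-452K12.7, at 0 and 7.16 FPKM. UTP3 had 2.20 and 11.0 FPKM, 4.99-fold lower, and UTP20, a large scaffold protein, 0.800 and 3.68 FPKM, 4.60-fold lower. Their log2 ratios at equal sums were -0.44 and -0.32. The other lower members were UTP18 with 4.63 and 14.9 FPKM, UTP6 with 3.88 and 12.7 FPKM, and UTP15 with 1.98 and 6.23 FPKM. These 3 lay between 3.14-fold and 3.28-fold lower as deposited, and their log2 ratios turned to between 0.16 and 0.22 at equal sums.

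Of the remaining small subunit members, UTP11L had 5.80 FPKM with the IMP1 antibody and 5.95 FPKM with IgG, NOL10 2.20 and 2.16 FPKM, and NOP9 0.598 and 0.588 FPKM. These 3 differed by less than 3% between the libraries as deposited. NOL11 and UTP11L were thus nearly level with the IMP1 antibody (a ratio of 0.994) and 7.38-fold apart with IgG. UTP23 had 2.96 and 1.67 FPKM and NOP14 2.42 and 1.40 FPKM. The higher members were all at or under 1.18 FPKM in the IMP1 library. UTP14C had 1.18 and 0.157 FPKM, NOL6 1.003 and 0.161 FPKM, UTP14A 0.909 and 0.359 FPKM, and RRP9, a protein of the U3 snoRNP, 1.05 FPKM and a listed 0. With a pseudocount of 1 in place of 0.1, the log2 ratios of UTP14C, NOL6 and UTP14A were 0.91, 0.79 and 0.49. UTP14C is a retrocopy of UTP14A, so reads may be split between them, and its listed span also holds ALG11 (2.01 and 0.198 FPKM).

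Large subunit maturation. None of the 8 members of this group lay within 2-fold. Of the 8, 3 were lower (37.5%, against 29.9% of all genes) and 5 higher (62.5%, against 39.9%). NOL8 had 0.775 FPKM with the IMP1 antibody and 13.4 FPKM with IgG, 17.3-fold lower and the lowest log2 ratio of all members (-3.95, and -2.20 at equal sums). Its rank was 10625 with the IMP1 antibody and 2971 with IgG. Its listed span (chr9:95059640-95432547, hg19) also holds OGN and ECM2, which encode matrix proteins and were at 0 with the IMP1 antibody and at 4.54 and 0.572 FPKM with IgG. The same span holds CENPP, at 0.109 and 0.373 FPKM, and IPPK, which went the other way, at 1.12 and 0 FPKM. NOP16, a nucleolar protein of the large subunit precursor, was its opposite, with 6.53 FPKM with the IMP1 antibody and 0.770 FPKM with IgG, 8.48-fold higher and ranked 3180 against 9095. Its listed span also holds CLTB, which encodes a clathrin light chain, at 11.5 and 0.890 FPKM. HIGD2A, at 31.5 and 25.7 FPKM, and ARL10, at 0.0166 and 0.102 FPKM, share that span too. NOP16 over NOL8 was 8.43 with the IMP1 antibody and 0.0575 with IgG. RRS1, which helps to install the 5S particle, had 5.19 and 12.8 FPKM, and NOL9, a kinase for RNA 5′ ends in rRNA processing, 2.72 and 9.43 FPKM. Both were lower as deposited and had log2 ratios of 0.58 and 0.081 at equal sums.

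The remaining 4 were at or near 0 with IgG. PES1 had 3.05 FPKM and BOP1 1.34 FPKM with the IMP1 antibody, and both were listed at 0 with IgG. They encode partners in a complex with WDR12, which had 6.02 FPKM with the IMP1 antibody and 15.3 FPKM with IgG. NOP2, an rRNA methyltransferase, had 1.34 FPKM and a listed 0. NOL12, an RNA-binding protein of rRNA processing, had 3.13 FPKM beside its near-0 value, and shares its listed span with TRIOBP (1.20 and 0.243 FPKM). The group median of 3.39 rests on these near-0 values, since the 4 members above 0.001 FPKM in both libraries had a median log2 ratio of -1.52.

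Other genes that the symbols brought in. NOL3 is known as a repressor of apoptosis rather than a ribosome factor, and had 8.40 FPKM with the IMP1 antibody and 18.1 FPKM with IgG. NOL7 had 6.34 and 8.69 FPKM. NOP14-AS1, the antisense gene of NOP14, had 2.52 and 2.60 FPKM and the same listed span as NOP14. Whether strand was used in counting is not given in the sources used here, so reads of this pair cannot be told apart. NOL4 had 0.160 FPKM with the IMP1 antibody, the lowest of the members, and was listed at 0 with IgG.

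**Figure D2:**
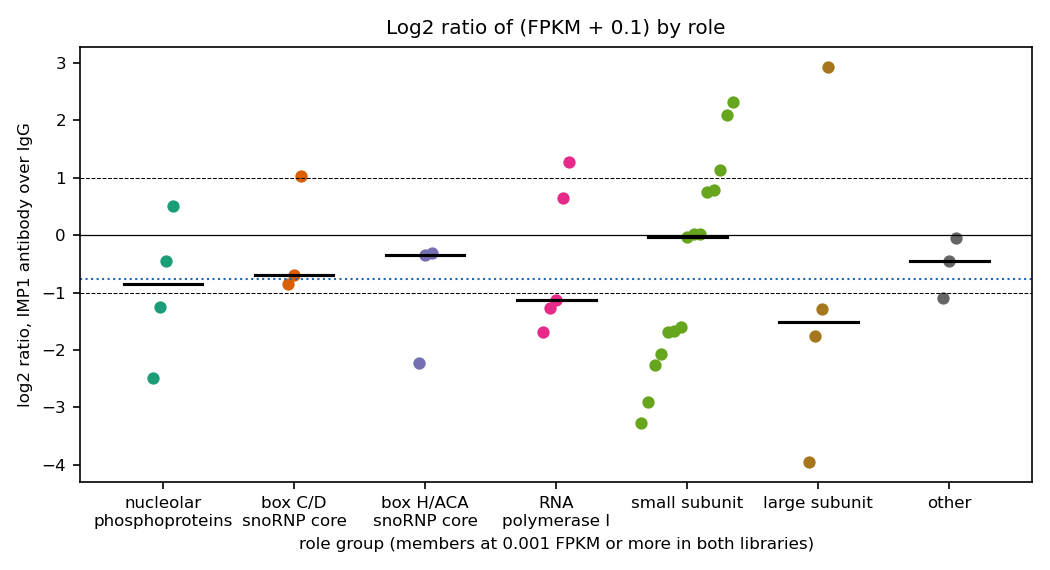
Log2 ratio of FPKM + 0.1, IMP1 antibody over IgG, for the 37 members at 0.001 FPKM or more in both libraries, by role, with black bars at the group medians over these members, dashed lines at 2-fold and a dotted line at the median of all such genes (-0.77). Each role group but the box C/D core holds members below the lower dashed line, and FBL is the 1 box C/D member above the upper one.

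Across all members, FPKM ran from 0.160 to 348 with the IMP1 antibody (median 2.84) and from 0 to 476 with IgG (median 5.28), and 38 and 31 members reached 1 FPKM. The members summed to 570 FPKM with the IMP1 antibody and 892 FPKM with IgG, which was 0.161% and 0.0687% of all FPKM. The order of the members was only partly shared, with a Spearman rho of 0.67 between the libraries over the 37 members with a fold and 0.63 over the 10014 genes of the table that met the same limit. Length of the listed span, the gene-level feature that could be read from the table, had a rho of -0.10 with the log2 ratio over the 23 members with a fold and a span of their own and of -0.11 over 5436 such genes. These are descriptions over genes within 1 pair of libraries, and the members share that pair. Of the 44 members, 16 have a listed span that holds another gene of the table as well. The table holds 34 snoRNA and scaRNA genes, and none lies inside a listed span of a member.

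**Figure D3:**
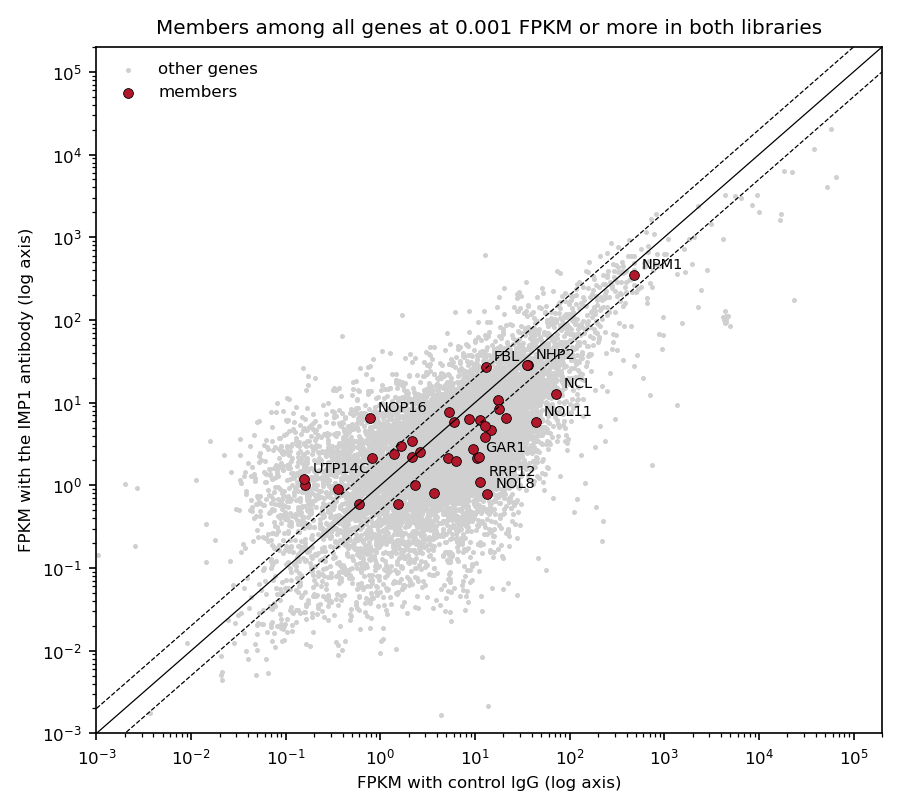
FPKM with the IMP1 antibody against FPKM with control IgG, both on log axes, for genes at 0.001 FPKM or more in both libraries, with the 37 such members in red, a solid line at equal values and dashed lines at 2-fold. The members lie within the cloud of the other genes, with NPM1 near the line of equal values, FBL and NOP16 above the upper dashed line and NCL, NOL11, RRP12 and NOL8 below the lower one.

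Ribosome biogenesis genes outside these symbols were taken from a list by role. Of 120 listed symbols, 118 were in the table. Of these, 49 were lower (41.5%, against 29.9% of all genes), 32 were higher (27.1%, against 39.9%) and 37 lay between. Of the 32 higher, 19 were at or near 0 with IgG. The median log2 ratio of the 118 was -0.44 as deposited and 1.34 at equal sums, beside 0.40 and 1.87 for all genes. Among the 79 at 1 FPKM or more in both libraries, 42 were lower (53.2%, against 44% of all such genes) and 4 higher (5.06%, against 11.5%). Their median was -1.08. The large subunit factors of this list had 26 of 53 lower (49.1%) and the small subunit factors 13 of 40 (32.5%), beside 29.9% of all genes. The smallest ratios at that level were those of C1D, a cofactor of the nuclear exosome (1.63 FPKM with the IMP1 antibody and 24.5 FPKM with IgG), CEBPZ, a large subunit factor (1.69 and 24.8 FPKM), and NMD3, the export adaptor of the large subunit (7.61 and 60.4 FPKM). The largest were those of WBSCR22, a methyltransferase of 18S rRNA (38.0 and 9.05 FPKM), IMP3, a protein of the U3 snoRNP and no relative of IMP1 (15.9 and 4.23 FPKM), and GLTSCR2, a factor that binds the 5S particle (25.7 and 9.21 FPKM).

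The mRNAs of the ribosomal proteins themselves lay mostly within 2-fold as deposited. At equal sums most of them were higher, as were 63.7% of all genes. Of 88, 7 were lower (7.95%, against 29.9% of all genes) and 11 higher (12.5%, against 39.9%) as deposited. The other 70 lay within 2-fold, where 14 of the 44 members (31.8%) and 30.3% of all genes did. With the scale set at the median gene, 4 of the 88 were lower and 35 higher, against 21.3% and 49.3% of all genes. At equal sums 1 was lower and 77 higher, against 13.0% and 63.7% of all genes. The median log2 ratio of the 88 was -0.03 as deposited and 1.84 at equal sums, beside 0.40 and 1.87 for all genes. The 88 summed to 28419 FPKM with the IMP1 antibody and 29740 FPKM with IgG. These mRNAs are far more abundant than the members, at median levels of 274 and 281 FPKM, and only NPM1 of the members reached that level. Translation factors were taken by symbol, as EIF or EEF followed by a digit. Of 61, 18 were lower (29.5%, against 29.9% of all genes) and 12 higher (19.7%, against 39.9%). Their median log2 ratio was 0.37 as deposited, 1.75 at equal sums and -0.27 over the 51 at 1 FPKM or more in both libraries. The corresponding medians of all genes were 0.40, 1.87 and -0.78. The symbols also brought in the kinases EIF2AK1 to EIF2AK4, and EIF4ENIF1, all lower, and the kinase EEF2K, higher through a listed 0. No test of these differences can be made with 1 library each.

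**Figure D4:**
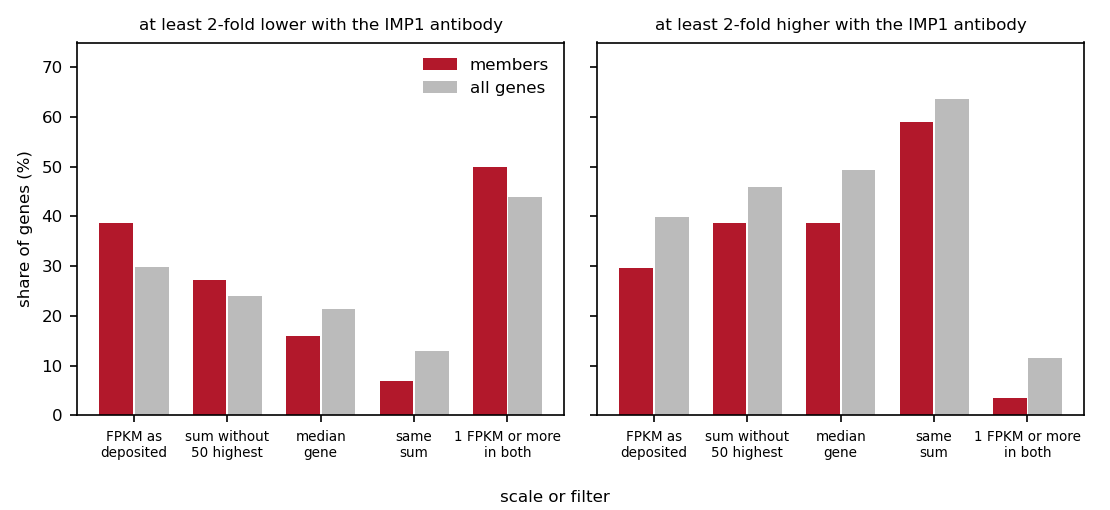
Share of the members (red) and of all genes (grey) that were at least 2-fold lower (left) or higher (right) with the IMP1 antibody, in percent, on 4 scales and among genes at 1 FPKM or more in both libraries. The members' share of lower genes runs from 38.6% as deposited to 6.82% at equal sums, and that of all genes from 29.9% to 13.0%.

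Start sites, which the choice of members did not use, were searched for 2 motifs. Windows from 250 bases before to 50 bases after the RefSeq starts (GRCh38.p14) were found for 35 of the 44 members. The E-box CACGTG, which reads the same on both strands and is the site bound by MYC and related factors, occurred in 13 of the 35 (37.1%) and in 1727 of 15843 protein-coding genes (10.9%). The 13 were FBL, GAR1, NOL6, NOL7, NOL8, NOP10, NOP14, NOP2, PES1, RRP9, UTP14A, UTP18 and UTP20. Of these, 4 were lower and 6 higher with the IMP1 antibody, with a median log2 ratio of 0.75, on the deposited scale. Of the 22 without it 10 were lower and 5 higher, with a median of -0.57. Over all genes 29.9% were lower and 39.9% higher, with a median of 0.40. The 0.75 counts NOP2, PES1 and RRP9 (3.85, 4.98 and 3.52), and the -0.57 counts DKC1, NOL4 and NOL12 (5.05, 1.38 and 5.01). These 6 ratios rest on a value at or near 0 with IgG and on the pseudocount, so neither median is that of members with a fold. Whether the ratio goes with the E-box was not tested. The members with the E-box thus include NOL8, the lowest ratio, and FBL, the higher member of the box C/D core. NOP2, PES1 and RRP9 have it too and are higher through a listed 0 with IgG. Those without it include DKC1, NOL4 and NOL12, also higher through a value at or near 0. The E-boxes of the 13 begin anywhere from 241 bases before to 36 bases after an annotated start, and 8 members have one that begins within 15 bases of it, a limit chosen after the values were seen. Those 8 are shown, with the E-box in capitals between 12 bases on each side, 5′ to 3′ on the strand of the gene:
FBL, chr19:39846356-39846385, minus strand: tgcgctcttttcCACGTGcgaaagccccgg
NOL6, chr9:33473894-33473923, minus strand: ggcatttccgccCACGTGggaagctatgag
NOL8, chr9:92325342-92325371, minus strand: gctccgttgggaCACGTGaccagaagttag
NOP10, chr15:34343130-34343159, minus strand: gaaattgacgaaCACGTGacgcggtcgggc
PES1, chr22:30591880-30591909, minus strand: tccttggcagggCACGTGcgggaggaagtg
RRP9, chr3:51941892-51941921, minus strand: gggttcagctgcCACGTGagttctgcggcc
UTP18, chr17:51260538-51260567, plus strand: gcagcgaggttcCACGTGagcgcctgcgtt
UTP20, chr12:101280083-101280112, plus strand: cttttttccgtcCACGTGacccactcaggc

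A pyrimidine run at the start of an mRNA marks the mRNAs of ribosomal proteins and many other translation genes. A C followed by at least 4 further C or T, beginning within 10 bases of an annotated start on the strand of the gene, occurred in 10 of the 35 members (28.6%) and in 38.9% of the 15843 genes. NCL and NPM1 were among the 10, with FBL, NOL3, NOL4, POLR1C, POLR1D, UTP14A, UTP14C and UTP20. Of the 10, 4 were lower and 4 higher with the IMP1 antibody, and of the 25 without it 10 were lower and 7 higher. Over all genes 29.9% were lower and 39.9% higher. Both of the most abundant phosphoprotein genes carry a match, although NCL was 5.62-fold lower and NPM1 lay within 2-fold. NPM1 also has a match of 7 bases at an upstream annotated start (chr5:171387101-171387130), beginning 8 bases before that start. The NCL run of 5 bases begins 10 bases before its annotated start, so it lies wholly upstream of that start. The NPM1 run at the downstream start and the NCL run are shown in capitals:
NPM1, chr5:171387834-171387863, plus strand: cggggagcctgcgtCCTTTCCCTggtgtga
NCL, chr2:231464470-231464499, minus strand: tcagtCTTTCgcctcagtctcgagctctcg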

How the data were processed

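RNA labelled as from T47D, held by an IMP1 antibody or by normal IgG, was sequenced, 1 library each. The authors deposited FPKM per gene for both libraries. The aligner, the quantification software, the annotation and the strand setting are not given in the sources used here. The submitters' processing notes name hg19. Exact zeros, written as 1e-05, were set to 0, and 1 was added to each locus start, which counts from 0. Locus spans can cover several overlapping genes. The deposited fold changes, p-values and q-values and both gene lists made from them belong to the authors' own comparison and were not used.

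Log2 ratios of FPKM + 0.1 were computed for all 18781 genes with Python 3.11.15, numpy 2.4.6 and pandas 2.3.3, after tests on simulated data. With 1 library per group no test was run. Every member could be named. Of 118 other ribosome biogenesis genes, the 3 largest and the 3 smallest ratios at 1 FPKM or more in both libraries were named, and WDR12 was chosen after its values were seen. Members and lists were chosen with earlier results of these data known. Start-site windows came from RefSeq (GRCh38.p14), matched by symbol. The result of 1 list of cell type markers is not reported here. The alternatives were other pseudocounts, filters, scales, folds and member sets.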

Additional observations from a re-analysis of the deposited data

How the results depend on the processing

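The NCL ratio kept its sign under the 5 alternatives run for it and stayed past 2-fold under all but equal sums. A pseudocount of 1 gave 7 members higher (15.9%, against 17.4% of all genes). Keeping only genes above 0 in both libraries gave 7 higher of 38 (18.4%, against 17.5% of all such genes). Keeping those at 1 FPKM or more in both gave 1 higher (3.57%, against 11.5%). The median log2 ratio was then -0.98, beside -0.78 for all such genes. Scaling to the median gene gave 7 members lower (15.9%, against 21.3% of all genes) and an NCL ratio of -1.69. The median was 0.46, beside 0.96 for all genes. Equal sums without the 50 highest genes gave a median of 0.21, beside 0.76. At equal sums, 3 members were lower (6.82%, against 13.0% of all genes) and 26 higher (59.1%, against 63.7%). The median was 1.54, beside 1.87 for all genes, and NCL was at -0.61. On that scale 18 members with a fold changed sign. These were 8 that lay within 2-fold as deposited, which came to between 0.999 and 1.82, and 10 that were at least 2-fold lower: UTP18 to 0.19, POLR1A to 0.64, TCOF1 to 0.46, UTP6 to 0.16, POLR1B to 0.56, NOL3 to 0.76, NOL9 to 0.081, UTP15 to 0.22, RRS1 to 0.58 and POLR1D to 0.17. A 4-fold limit gave 7 lower (15.9%, against 17.3% of all genes) and 9 higher (20.5%, against 26.1%). Leaving out NOL3, NOL4 and NOP14-AS1 gave 16 lower (39.0%, against 29.9%) and 12 higher (29.3%, against 39.9%), with a median of -0.34. Members with a listed span of their own, an alternative chosen after seeing the data, gave 12 lower and 9 higher of 28. These were 42.9% lower, against 32.0% of all such genes, and 32.1% higher, against 37.6%. Their median was -0.57, beside 0.34 for all such genes. By construction the scales shift every ratio by nearly the same amount and the filters remove the members listed at exactly 0 with IgG. The filter above 0 in both libraries keeps NOL12, which is higher through its 4.41e-09 FPKM with IgG. No paired analysis was possible because each condition had 1 library, and for the same reason no replicate could be left out. The planned descriptions of protein length and protein sequence were not run, since no protein table was used here.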

Other observations

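U3, the small nucleolar RNA of the small subunit processome, is listed as several near-identical copies, among which reads may be split. SNORD3A had 84.1 FPKM with the IMP1 antibody and 379 FPKM with IgG, SNORD3B-1 10.6 and 25.5 FPKM, SNORD3C 4.22 and 11.0 FPKM, SNORD3D 2.61 and 4.99 FPKM, and SNORD3B-2 9.45 and 10.5 FPKM. A copy listed as U3 had 2.79 FPKM and a listed 0. A search of the gene descriptions for nucleolar proteins outside both lists, made after the members' values were seen, found 5 further genes. ESF1, a factor for processing of precursor rRNA, had 0.229 FPKM with the IMP1 antibody and 5.73 FPKM with IgG. NUSAP1, a nucleolar and spindle protein, had 17.2 and 43.1 FPKM, and C20orf112 0.335 and 0.831 FPKM. KNOP1 had 3.48 FPKM and NOM1 0.898 FPKM with the IMP1 antibody, and both were listed at 0 with IgG. These values have no replicate check, and their directions hold for the deposited scale.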
